A study of Homo sapiens with 18 samples.

Results

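The 55 keratin genes on chromosomes 12 and 17 were chosen from 19111 protein-coding autosomal genes of the GENCODE annotation (hg38) by their symbols, KRT followed by a number and at most a letter A, B or C. Of these, 27 lay between positions 52168996 and 52952906 of chromosome 12, from KRT80 to KRT18, and 28 lay between positions 40654665 and 41624842 of chromosome 17, from KRT222 to KRT17. The genes sat on the minus strand in 24 of 27 and 28 of 28 cases. Each gene was described by the peaks whose highest point, the summit, fell in its body or within 10 kb of either end. Windows of neighbouring genes overlapped, so that 1 peak could count for several genes. The 19 merged windows held 1.233 Mb, or 0.0429% of the autosomes.

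The cells were HEK293T, an established human line grown from embryonic kidney and carrying the SV40 large T antigen. Untreated cells (CTRL) were compared with cells exposed to the histone deacetylase inhibitor valproic acid (VPA) at 1 mM for 1 day. Each group held 3 replicates, profiled by chromatin immunoprecipitation and sequencing for H3K27ac, a histone mark of active promoters and enhancers, and for CTCF, a DNA-binding protein found at domain boundaries and at many promoters. All libraries came from 1 line with no other genotype or drug, and the labels do not say whether replicates were separate cultures, so that a p-value measures only the spread between these libraries.

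Keratins build the intermediate filaments of epithelial cells from obligate pairs of an acidic type I chain and a basic type II chain. The type I genes form the chromosome 17 cluster, and the type II genes form the chromosome 12 cluster, in which the type I gene KRT18 lies beside its partner KRT8. Single-layered epithelia make the simple keratins, such as KRT7, KRT8, KRT18, KRT19 and KRT20. Epidermis and other layered epithelia make stratified keratins, such as KRT5 and KRT14 in basal cells and KRT1 and KRT10 in differentiating cells, and hair follicles make the remaining large classes. Every chain has a central rod, and the helix termination motif at the end of the rod is among the most conserved stretches of the family.

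The deposited files were peak lists made per library with MACS3, and they gave for each peak the fold enrichment at its summit, the read pileup there divided by the local background. The lists held 26299 to 29799 H3K27ac peaks in CTRL and 38441 to 40992 in VPA, and 36469 to 58782 CTCF peaks. The number of sequenced reads behind a list is unknown, and a region missing from a list lay under the calling threshold, which is not the same as having no signal. Replicate 1 stood apart in both treatments and with both antibodies. Its lists had the genome-wide value as the local background of 21.3 to 31.9% of peaks, against 3.48 to 13.6% in the other replicates. H3K27ac marked the promoters of 7 of 7 ubiquitous genes, 7 of 10 kidney progenitor markers and 6 of 8 mesenchymal markers in CTRL, but of 0 of 8 epithelial adhesion genes, 1 of 8 keratinocyte markers (PERP), 0 of 6 blood markers and 0 of 5 hepatocyte markers. The share over all genes was 63.0%.

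A set of the sequences at which CTCF sat or was missing inside the keratin coding exons is given first, since most of the CTCF comparisons below turn on them. Each is an 18-base stretch of an exon that encodes part of the helix termination motif, read on the strand opposite to the gene. Capitals mark the bases shared with CCNCCAGGGGGCGCNNNN, the consensus of the CTCF motif learned from 2688 of the 3000 strongest CTCF regions of these libraries. The number of libraries counts those with a CTCF summit within 250 bp, out of 6. The sequences were read from the hg38 assembly.
KRT17, chr17:41620675-41620692, plus strand, exon 6 of 8, also in KRT12, KRT14, KRT16 and KRT18 (6 libraries in all 5 genes): CCagCAGGcGGCGgtagg
KRT36, chr17:41486966-41486983, plus strand, exon 6 of 7 (6 libraries): CCagCAGGtGGCGgtagg
KRT77, chr12:52692447-52692464, plus strand, exon 7 of 9 (6 libraries), also in KRT2, chr12:52646766-52646783 (3 libraries), and 9 other type II genes: gCggtAGGtGGCGatctc
KRT71, chr12:52546312-52546329, plus strand, exon 7 of 9 (3 libraries): gCgatAGGtGGCGatctc
KRT1, in 0 libraries: CCtgtAGGtGGCaatctc
KRT5, in 0 libraries: gCggtAaGtGGCGatctc
KRT13 and KRT19, in 0 libraries: CgagCAGGctGCGgtagg
KRT10, in 0 libraries: CtagCAGGctGCGgtagg

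H3K27ac was scarce over the keratins. A gene was called active when an H3K27ac summit lay within 1 kb of its main transcription start in at least 2 of 3 CTRL libraries, partial when it had only other H3K27ac peaks in its window, and silent when it had none in CTRL. By this rule 2 keratins (3.64%) were active, KRT18 and KRT222, and 7 (12.7%) were partial, KRT7, KRT8, KRT10, KRT80, KRT81, KRT83 and KRT86. The other 46 (83.6%) were silent, against 20.0% of all protein-coding genes, of which 63.0% were active and 17% partial. The silent keratins had no H3K27ac peak in the VPA libraries either, so that no silent keratin gained a first peak in any of the 6 libraries. The share of all silent genes that gained a first peak in VPA was not counted.

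The acetylated share differed between the classes of keratin. Of the 5 simple keratins, KRT18 was active, KRT7 and KRT8 were partial, and KRT19 and KRT20 were silent. Of the 20 stratified keratins 19 were silent, including KRT5, KRT14, KRT1 and the wound-associated KRT6A, KRT16 and KRT17, and KRT10 was partial. All 8 keratins of the inner root sheath of the hair follicle were silent, as were 14 of 17 hair keratins. The 3 partial hair keratins were KRT81, KRT83 and KRT86, neighbouring genes of the chromosome 12 cluster. KRT222, a keratin-like gene with a short rod, and KRT80, found in many epithelia, made up the remaining acetylated genes.

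**Figure D1:**
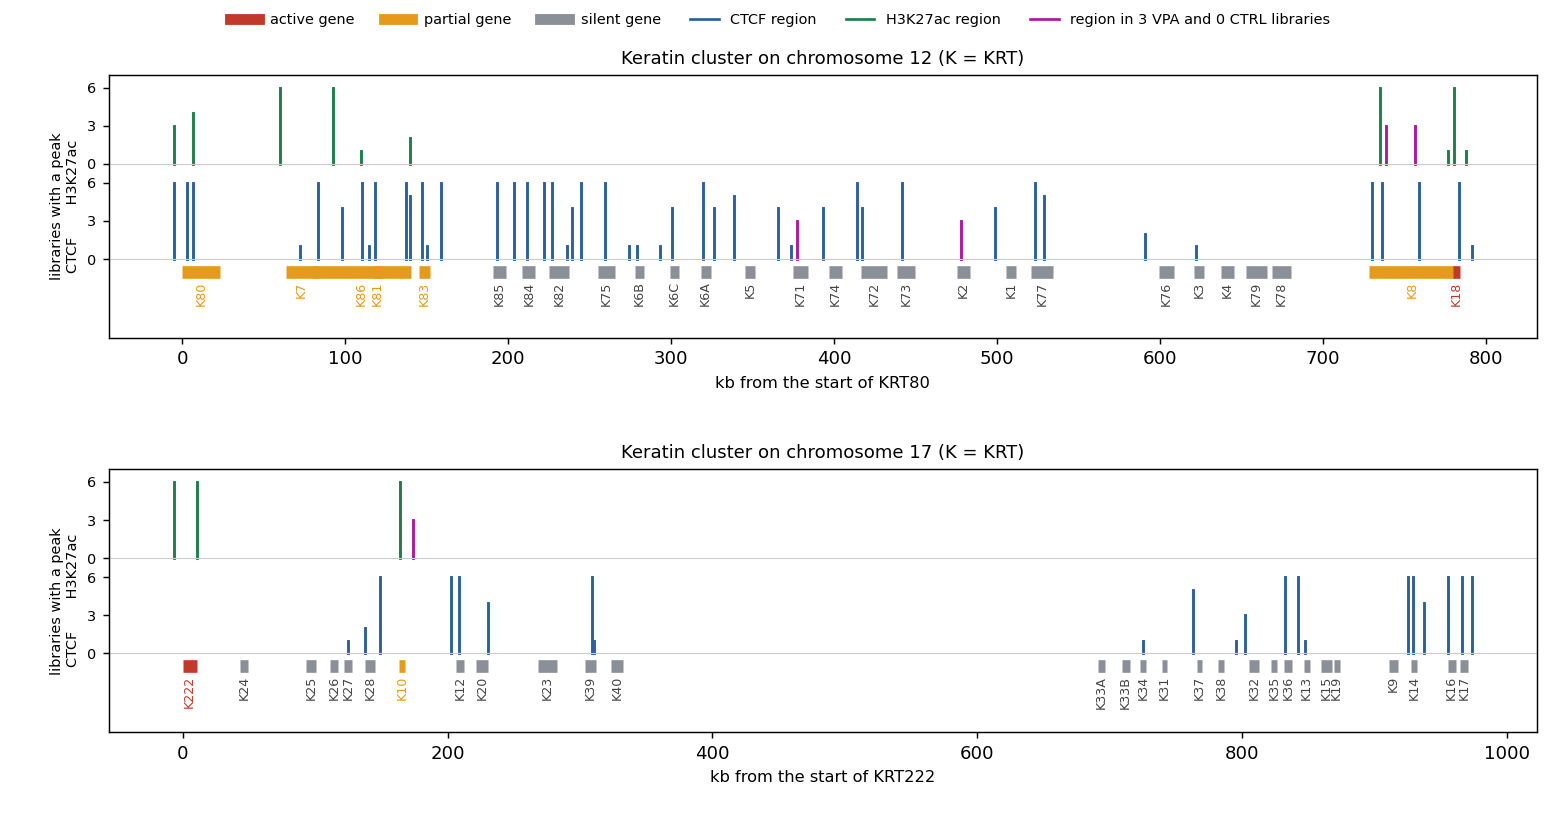
Both keratin clusters, with distance in kb from the first gene on the horizontal axis, gene bodies coloured by H3K27ac status in CTRL, and a vertical line at each region in a keratin window whose height is the number of libraries (0 to 6) with a CTCF or H3K27ac peak. The 9 active or partial keratins sit at both ends of the chromosome 12 cluster and at KRT222 and KRT10 on chromosome 17, while CTCF regions also lie among the 46 silent genes.

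KRT18 carried the promoter peak found in every library. The region, chr12:52948043-52950516, covered the KRT18 start, and its summit lay 173 to 239 bp downstream, in coding exon 1 of 7. An annotated distal start of KRT8 also lay within 1 kb of the summit, so that the mark cannot be assigned to KRT18 alone. Its fold enrichment was 4.06, 10.4 and 12.3 in CTRL replicates 1 to 3 and 3.91, 9.9 and 13.8 in VPA. The groups overlapped, replicate 1 was lowest in both, and the log2 difference (VPA minus CTRL) was 0.01 ± 0.65 (SE, n = 3 and 3; adjusted p = 1.0, limma). The KRT222 promoter, chr17:40664714-40665727, had 6.7, 5.73 and 5.51 in CTRL and 8.12, 4.86 and 8.87 in VPA, above KRT18 in replicate 1 and below it in replicates 2 and 3. Another protein-coding gene of the annotation starts within 1 kb, so that the mark cannot be assigned to KRT222 alone. Its log2 difference was 0.24 ± 0.53 (SE; adjusted p = 1.0, limma).

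At KRT8, the type II partner of KRT18, H3K27ac formed a broad region over the 5′ end of the gene, chr12:52902480-52906144. Its fold enrichment was 3.87, 18 and 16.9 in CTRL and 6.27, 17.3 and 19.4 in VPA, a log2 difference of 0.28 ± 0.70 (SE; adjusted p = 1.0, limma) with overlapping groups. The position of the summit differed between the groups. It lay 1323, 1302 and 1291 bp inside the gene from the main start in CTRL, and 852, 855 and 880 bp inside in VPA, with no overlap. How often the summits of other shared regions differ without overlap was not counted. The KRT8 peak itself covered the start in CTRL replicates 2 and 3 and in all VPA libraries, but not in CTRL replicate 1. KRT8 was thus partial in CTRL and active in VPA because its summit crossed the 1 kb limit, and that alone raised the number of keratins with a promoter peak from 2, 2 and 2 in CTRL to 3, 3 and 3 in VPA (exact permutation test, two-sided, p = 0.1, the smallest that 3 against 3 allows; adjusted over 7 tests, p = 0.7). The difference was 0.0 when any overlap with the promoter, a limit of 2.5 kb or any coding start was used.

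Upstream of KRT8, 2 regions were called in all VPA libraries and in no CTRL library. The nearer, chr12:52906675-52908334, was 1660 bp wide and had a fold enrichment of 4.2, 2.67 and 3.13 in VPA. It lay inside the annotated gene but upstream of its main transcript, and 1 other annotated coding start of KRT8 fell inside it. The farther, chr12:52924780-52926083, was 1304 bp wide, with 4.71, 3.84 and 2.68 in VPA, and its edge lay 386 bp from a RefSeq start of KRT8 that is 21393 bp upstream of the main one. Of these 6 values 5 were under the median fold enrichment of a peak in their own library, 4.7 to 4.97, and the value of 4.71 was just above it. The promoter sequence at this distal start (RefSeq, GRCh38.p14, minus strand, 250 bases before to 50 after the start) is printed because the region called in VPA ends just inside the gene from it, and it held none of the 4 motifs searched below.
KRT8 distal start, chr12:52926420-52926719: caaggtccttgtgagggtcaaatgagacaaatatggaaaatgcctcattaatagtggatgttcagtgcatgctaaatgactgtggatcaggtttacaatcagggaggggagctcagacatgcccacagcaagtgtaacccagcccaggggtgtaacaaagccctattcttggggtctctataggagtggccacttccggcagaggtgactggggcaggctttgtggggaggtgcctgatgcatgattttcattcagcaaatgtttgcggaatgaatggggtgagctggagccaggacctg

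**Figure D2:**
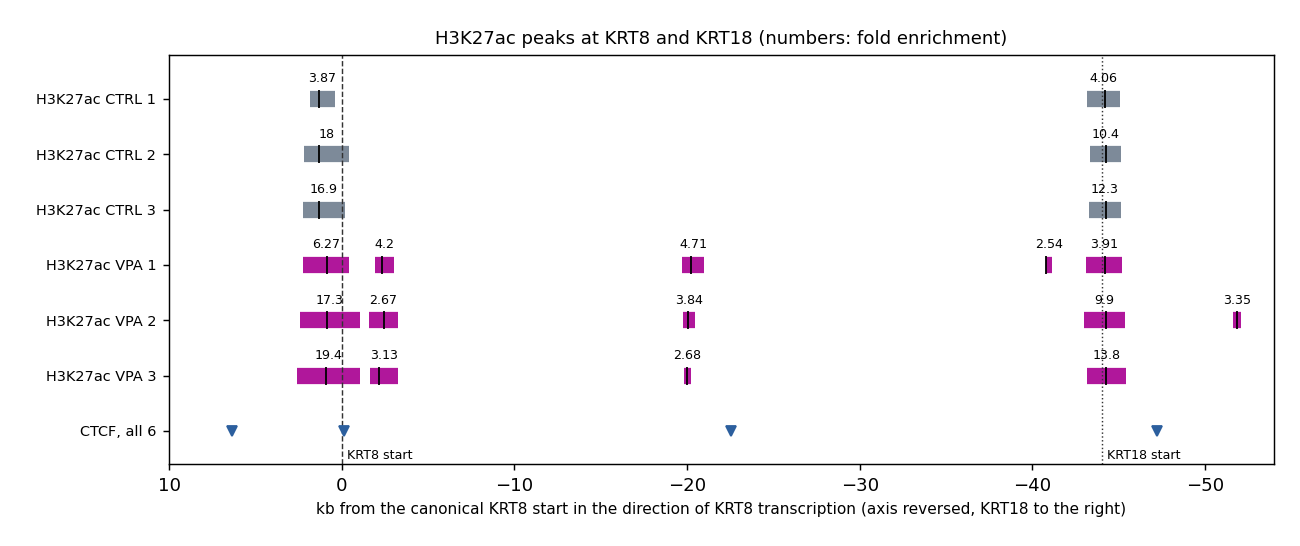
H3K27ac peaks at KRT8 and KRT18, with distance in kb from the main KRT8 start on the horizontal axis (reversed, KRT18 to the right), a row per H3K27ac library, bars for peaks with their fold enrichment, ticks for summits, and triangles for CTCF regions called in all 6 libraries. Upstream of KRT8, 2 regions appear in the 3 VPA rows and in no CTRL row, and the ticks near the KRT8 start are closer to it in VPA.

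KRT10, which pairs with KRT1 in differentiating epidermis, also had a region called only in VPA. Its region in all libraries, chr17:40818178-40819963, was centred in coding exon 7 of 8, at the annotated start of the antisense transcript KRT10-AS1, so that the mark cannot be assigned to KRT10 alone. Its fold enrichment was 7.22, 25.2 and 22.9 in CTRL and 6.88, 23.8 and 12.8 in VPA (log2 difference −0.33 ± 0.66, SE; adjusted p = 1.0, limma). A region upstream of KRT10, chr17:40827371-40828539, was called only in VPA, at 2.78, 5.55 and 3.85, and another KRT10-AS1 start lay within 1 kb of it. The KRT10 promoter itself lay between both regions and had no H3K27ac summit within 1 kb of the start in any library. Its 300 bases on the minus strand held a TATA box (TATAAA) and a CCAAT box (CCAAT, here on the opposite strand), given in capitals.
KRT10, chr17:40822565-40822864: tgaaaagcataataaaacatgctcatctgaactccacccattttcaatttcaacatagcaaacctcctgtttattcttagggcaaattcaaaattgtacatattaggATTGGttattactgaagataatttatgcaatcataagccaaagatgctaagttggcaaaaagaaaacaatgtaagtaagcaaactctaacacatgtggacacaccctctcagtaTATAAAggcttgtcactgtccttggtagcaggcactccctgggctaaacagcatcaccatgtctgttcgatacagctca

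The acetylation at the remaining partial keratins was weak and lay away from their starts. The region chr12:52259552-52262646, shared by the windows of KRT7 and of the hair keratin KRT86, lay 13.1 kb upstream of the main KRT86 start. Its fold enrichment was 5.25, 5.21 and 4.35 in CTRL and 7.46, 6.41 and 6.19 in VPA, so that every VPA library was above every CTRL library, as in 4.51% of all shared regions (1.54% were lower in every VPA library), but the log2 difference of 0.44 ± 0.51 (SE; adjusted p = 1.0, limma) did not pass the test. KRT7 had a second region in all 6 libraries, chr12:52229083-52229617, at 4.48, 4.46 and 2.87 in CTRL and 4.43, 3.13 and 3.67 in VPA, over a pseudogene upstream of its start. At KRT18, 2 further peaks were each called in a single VPA library, at 2.54 and 3.35. Of the remaining regions, 4 lay at KRT80, KRT86 and KRT83 and were called in 1 to 4 libraries at 2.19 to 4.01. Each of the 4 overlapped a CTCF region, with summits 53 to 354 bp apart, and whether CTCF-bound chromatin enters the H3K27ac signal there was not tested.

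Over all keratin windows the CTRL libraries held 9, 11 and 8 H3K27ac peaks and the VPA libraries 11, 13 and 12. The groups met at 11, and the difference of 2.67 was not significant (means 9.33 ± 1.53 and 12 ± 1.0, SD, n = 3 and 3; exact permutation test, two-sided, p = 0.2; adjusted over 7 tests, 0.7). As a share of each list the keratins held 0.0342, 0.0372 and 0.0268% of the CTRL peaks and 0.0286, 0.0317 and 0.0294% of the VPA peaks (exact permutation p = 0.5; adjusted, 0.817), so that keratin peaks did not become a larger share of the longer VPA lists. A window peak was present at 7, 9 and 7 keratins in the CTRL libraries and 6, 7 and 7 in the VPA libraries (exact permutation p = 0.6; adjusted, 0.817).

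Per gene, the counts of CTRL and VPA did not overlap at 3 keratins. KRT8 had 2, 2 and 2 peaks against 5, 5 and 4 in VPA, and KRT10 had 1, 1 and 1 against 2, 2 and 2. Without the peaks that also lie in the KRT18 window, the KRT18 promoter among them, KRT8 had 1, 1 and 1 against 3, 3 and 3. Both genes were higher in VPA, 2 of 55 keratins against 9.95% of all genes. KRT86 had 2, 3 and 2 peaks against 1, 1 and 1 in VPA, the 1 keratin of 55 that was lower, against 0.162% of all genes. In CTRL replicate 1 the second KRT86 peak was a split of the region shared with KRT7, which was not lower in VPA. Among the 16 H3K27ac regions of the windows, the 3 described at KRT8 and KRT10 were found only in VPA, against 4.12% of 55382 regions over the autosomes, and 0 were found only in CTRL, against 0.139%. With all lists cut to the same length, 0 keratin regions were found only in VPA.

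**Figure D3:**
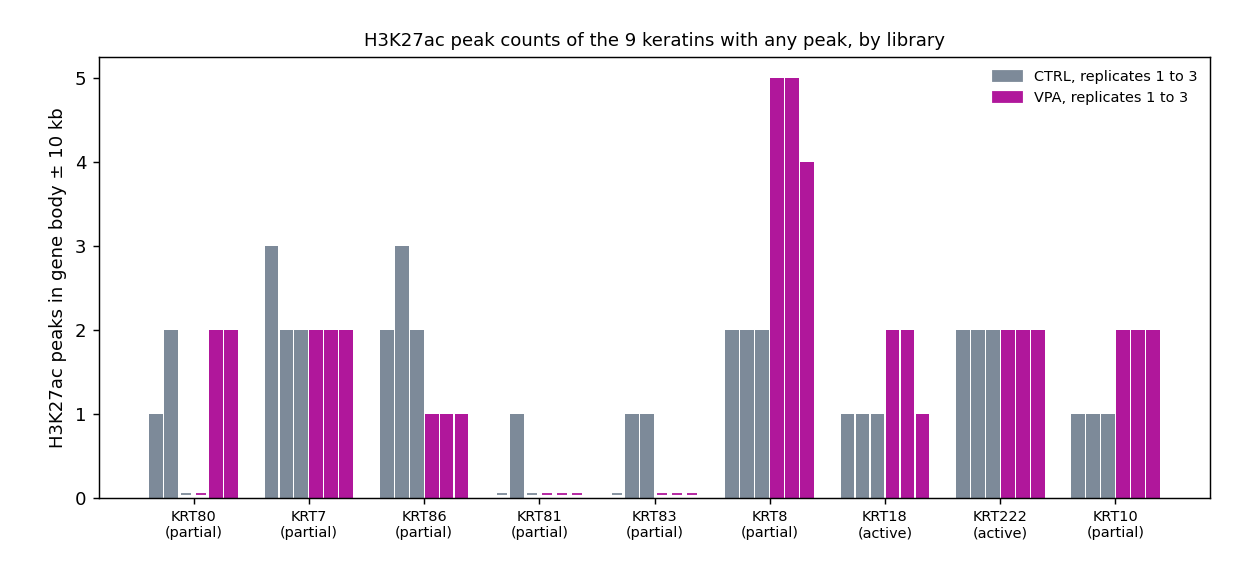
Number of H3K27ac peaks in the gene body ± 10 kb of the 9 keratins with any peak, a bar per library, grey for CTRL and magenta for VPA replicates 1 to 3, with a dash for 0. KRT8 and KRT10 are higher and KRT86 is lower in every VPA library, and the other 6 overlap.

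The heights of the 7 H3K27ac regions that all libraries shared were compared in 1 limma fit over 18407 shared regions. None of the 7 passed at an adjusted p of 0.05, and neither did any other region (0.0% higher, 0.0% lower; 161 of 18407 and 0 of 7 had an unadjusted p under 0.05). Replicates with the same number moved together (correlations of 0.585 to 0.864), but so did replicates 2 and 3 across numbers (0.606 and 0.554). The correlations of replicate 1 with replicates 2 and 3 were −0.731 to −0.687. All were computed on deviations from the mean of each group, which cancel within a group. Once replicate 1 stands apart in both groups, the opposite signs therefore follow by construction. With the replicate as a block 5.05% of all regions were higher and 8.9% were lower in VPA, and 1 of the 7 keratin regions was lower. It was chr17:40646553-40649293, in the KRT222 window but at the promoter of the chromatin remodelling gene SMARCE1, at 20.1, 84.6 and 55.3 in CTRL and 14.4, 27.8 and 38.7 in VPA (log2 difference −0.87; SE 0.65 and adjusted p = 1.0 without the block, SE 0.24 and adjusted p = 0.0317 with it, limma). The blocked adjusted p was 0.977 for the KRT18 promoter, 0.393 for KRT8, 0.481 for the KRT222 promoter, 0.322 for KRT10 and 0.155 for the region upstream of KRT86. With pileup over genome background in place of fold enrichment and the same block, a setting chosen after seeing the data, the KRT222 promoter (log2 difference 0.49, adjusted p = 0.00623, limma) and the region upstream of KRT86 (0.37, adjusted p = 0.0323) were higher and KRT10 (−0.46, adjusted p = 0.00424) and the SMARCE1 promoter (−0.85, adjusted p = 0.000648) were lower. The median log2 difference over all shared regions was −0.14 by fold enrichment and −0.28 by pileup over genome background.

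In the windows, the CTRL libraries had 46, 54 and 50 CTCF peaks, and the VPA libraries had 41, 55 and 52 (means 50.0 ± 4.0 and 49.3 ± 7.37, SD, n = 3 and 3; exact permutation p = 1.0). A CTCF peak in the window was found at 29, 35 and 36 keratins in the CTRL libraries and 30, 38 and 36 in the VPA libraries (exact permutation p = 0.6; adjusted, 0.817). In all 6 libraries it was found at 26 keratins, and 13 had none in any library, among them KRT222, KRT10, KRT19 and KRT15. The keratin share of the CTCF lists was 0.116, 0.0919 and 0.0884% for CTRL and 0.112, 0.103 and 0.094% for VPA (exact permutation p = 0.7; adjusted, 0.817).

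The clusters differed in density. CTCF regions called in all 6 libraries numbered 31 in the chromosome 12 cluster, 3.95 per 100 kb, and 13 in the chromosome 17 cluster, 1.34 per 100 kb, against 0.967 per 100 kb over the autosomes. A window held CTCF in all 6 libraries at 7 of 9 active or partial keratins (77.8%) and at 19 of 46 silent ones (41.3%), close to the shares over all genes, 77.7% and 43.1%. The windows of active or partial keratins held 5.66, 5.66 and 5.31 CTCF summits per 100 kb in CTRL and 5.31, 5.31 and 4.95 in VPA, and those of silent keratins 3.15, 3.99 and 3.68 in CTRL and 2.73, 4.2 and 3.99 in VPA. Pooled, active and partial windows were denser than silent ones in 6 of 6 libraries, but the windows of the 2 active keratins, KRT18 and KRT222, held 1.83 to 3.67 per 100 kb and were less dense than the silent ones in each library. KRT80, KRT81 and KRT83 were partial through H3K27ac regions that overlap CTCF regions, KRT81 through 1 peak in 1 library, so that CTCF in these windows was in part set by how status was assigned. Over all genes the densities were 1.85 to 2.82 and 1.31 to 2.08 per 100 kb.

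Inside the keratin genes, CTCF sat mostly in coding exons. Of 21 regions that were called in all libraries and lay inside a main keratin transcript, 18 (85.7%) had their summit in a coding exon, although coding exons made up 18.3% of the length of these transcripts. In the other protein-coding genes, 1261 of 11982 regions (10.5%) lay in a coding exon, and coding exons made up 2.86% of the length. The exons concerned were nearly always the same one. In 18 keratins CTCF was called in all 6 libraries at the 18-base stretch of their type, with the summit at most 17 bp away. The stretch was aligned to KRT8 in type II genes and to KRT17 in type I genes. It was not read at the same bases of the exon in both types. In 16 of the 18 keratins the site lay in exon 7 of a type II gene or exon 6 of a type I gene. The exceptions were KRT8 (exon 6 of 8) and KRT86 (exon 9 of 11), whose main transcripts have other exon numbers. Another 5 keratins, KRT2, KRT3, KRT6B, KRT6C and KRT71, had CTCF there in 1 to 5 libraries, and 32 had it in none.

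Occupancy differed between the sequences. All 5 keratins with the letters of KRT17 were occupied in all 6 libraries, as was KRT36, whose sequence had the highest motif score, 20.6. Of 15 keratins at or above the score of 11.7 that 1.0% of control windows reached, 14 were occupied in all libraries and 1, KRT20, was not occupied at the exon in any. Below that score 4 of 40 were occupied in all libraries, 5 in some and 31 in none. The 4 were KRT6A, KRT73, KRT75 and KRT77, which share the sequence printed for KRT77 (score 10.7). The KRT77 region held another match beside the site, with a score of 11.9, above the limit. With these same letters, KRT2, KRT3, KRT6B and KRT6C were occupied in some libraries, and KRT4, KRT7 and KRT72 in none. The motif was learned from the same CTCF libraries, and KRT8 and KRT17 were taken as references after their peaks had been seen, so that these counts are a description.

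By H3K27ac status, keratins with the same letters were as follows. Of the 5 keratins with the letters of KRT17, KRT18 was active and the other 4, KRT12, KRT14, KRT16 and KRT17, were silent, and all 5 were occupied in 6 of 6 libraries. Of the 11 with the letters of KRT77, the 1 partial gene, KRT7, was occupied in 0 libraries, and 8 of the 10 silent genes were occupied in at least 1. Over all 55, the site was occupied in 6 of 9 active or partial keratins (66.7%) and 12 of 46 silent ones (26.1%), and in 12 of 26 type II (46.2%) and 6 of 29 type I genes (20.7%). The acetylated genes without CTCF at the site, KRT7, KRT10 and KRT222, had scores below 11.7.

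**Figure D4:**
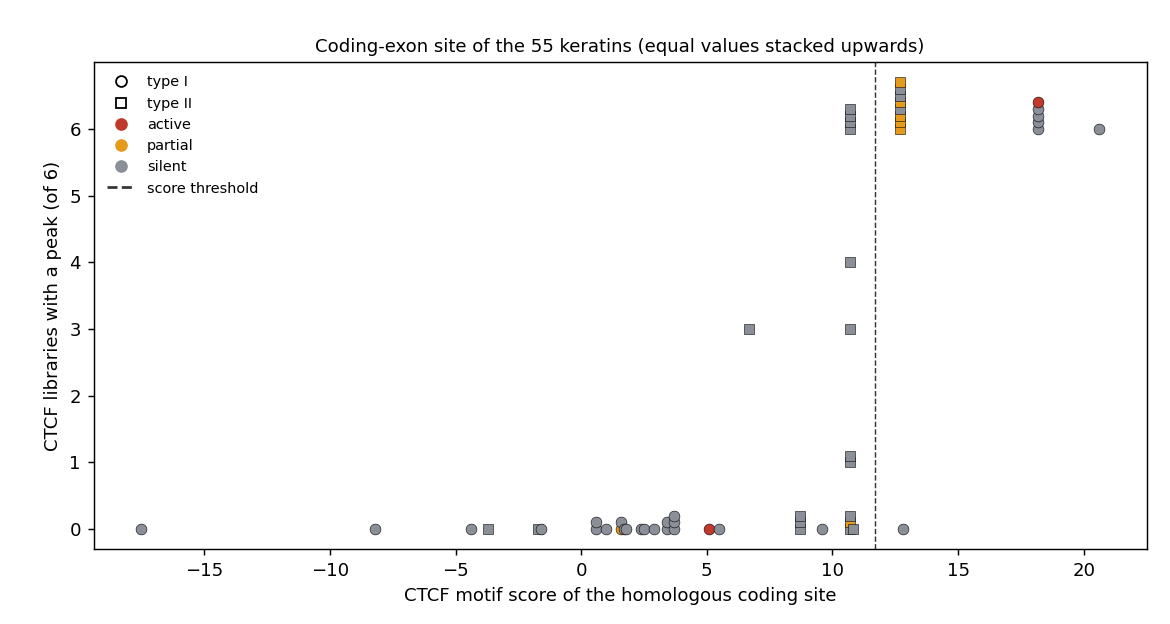
Motif score of the conserved coding-exon site of each of the 55 keratins (horizontal axis, log-odds) against the number of CTCF libraries, of 6, with a peak there (vertical axis, equal values stacked upwards), with circles for type I, squares for type II and colours for H3K27ac status in CTRL. Sites right of the dashed line at 11.7 are occupied in 6 libraries except KRT20 at 0, and both silent and acetylated genes lie there.

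The median fold enrichment at the 18 occupied exons ran from 5.58 at KRT6A to 53.0 at KRT84, a hair and tongue keratin. Next in order were KRT83 with 46.5 and KRT36 with 46.0. At KRT84 and the other hair keratins KRT81, KRT82, KRT83, KRT85 and KRT86 it was 27.7 or more. The KRT8 exon had 13.4, 27.7 and 24.3 in CTRL and 17.7, 33.4 and 21.0 in VPA, and the KRT18 exon had 12.6, 12 and 10.4 in CTRL and 10.9, 21.4 and 14.7 in VPA. Both pairs of groups overlapped. KRT17, with the same letters as KRT18, had 3.74, 10.3 and 7.58 in CTRL and 7.02, 11.2 and 8.71 in VPA.

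Some of these letters were also occupied outside the keratin genes. On chromosomes 1 to 22, the KRT17 letters occurred 19 times, in 5 keratin genes and 14 keratin pseudogenes, with CTCF in all 6 libraries at 15 and in at least 2 libraries at all 19. The letters of KRT77 were occupied in all libraries at 18 of 29 copies (62.1%), those of KRT1 at 2 of 5, and no type I sequence that scored 12.8 or less was occupied at any copy. In VIM (vimentin), which has the letters of KRT1, CTCF was called in 4 of 6 libraries, and in DES (desmin), whose site scored 12.7, in none.

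Near-identical copies limit how far these peaks can be assigned. Over 200 bp around the site KRT6A and KRT6C were 96.5% identical, KRT6B and KRT6C 92.5%, and KRT16 and its pseudogene KRT16P2 96.5%, and how reads with several matches were placed is not given in the sources used here. KRT81 and KRT83 were 77.0% identical. KRT18 was 67.5% identical to its closest copy among the sites with its letters, most of which lie in KRT18 pseudogenes. Identity was counted base by base, without gaps, over genomic sequence. Introns within the 200 bp can therefore lower the value against processed pseudogenes, and identity over the exon alone was not measured.

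VPA and CTRL differed at few CTCF sites. KRT2 and KRT71, silent keratins of the epidermis and of the inner root sheath, had their exon site called only in VPA. KRT2 had a fold enrichment of 5.86, 6.26 and 6.35 at chr12:52646570-52647024 and KRT71 had 3.53, 4.19 and 5.88 at chr12:52546172-52546613, all under the library medians of 9.74 and more. These were 2 of 69 CTCF regions in the keratin windows, against 0.186% of 69985 regions over the autosomes, and 0 keratin regions were found only in CTRL, against 0.326%. With lists of equal length 0 were found only in VPA. KRT2 was also the 1 keratin of 55 with more CTCF peaks in every VPA library (0, 0 and 0 against 1, 1 and 1), against 0.345% of all genes, and 0 keratins had fewer in every VPA library, against 0.78%.

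At KRT77, another silent epidermal keratin, the exon site was present in all libraries and higher in each VPA library, at 7.82, 10.1 and 6.35 in CTRL and 15, 16 and 15.1 in VPA. The log2 difference of 0.95 had an unadjusted p of 0.0419 and did not pass adjustment over 27794 shared CTCF regions (adjusted p = 1.0, limma). None of the 35 shared keratin regions, and none of the 27794, passed (0.0% higher, 0.0% lower; 90 regions, 1 of them the KRT77 site, had an unadjusted p under 0.05). Without regard to the test, 3 of the 35 had every VPA library above every CTRL library, against 3.88% of all shared CTCF regions, and 2 had every VPA library below, against 2.24%. Besides KRT77, the higher ones lay upstream of KRT17 (chr17:41627607-41628243, 3.03, 5.9 and 4.37 in CTRL and 8.78, 8.95 and 7.56 in VPA, log2 difference 0.98) and upstream of KRT36 (chr17:41496502-41497365, 17.1, 22.7 and 30.3 in CTRL and 37.4, 35.9 and 38.6 in VPA, 0.72). The lower ones lay upstream of KRT83 (chr12:52327020-52328416) and upstream of KRT82 (chr12:52413594-52414386). The region at KRT83 had 62.9, 59.7 and 44.7 in CTRL and 7.86, 41.5 and 31.9 in VPA. Its log2 difference of −1.34 was the largest of the 35. The region at KRT82 had 28.1, 16.7 and 19.3 in CTRL and 10.2, 15.1 and 16.7 in VPA (log2 difference −0.61). Its groups met at 16.7 within rounding. VPA replicate 1 was the lowest library at both regions. Without it the lowest log2 difference of the 35 was −0.6. The 4 regions besides KRT77 all had an adjusted p of 1.0 (limma).

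**Figure D5:**
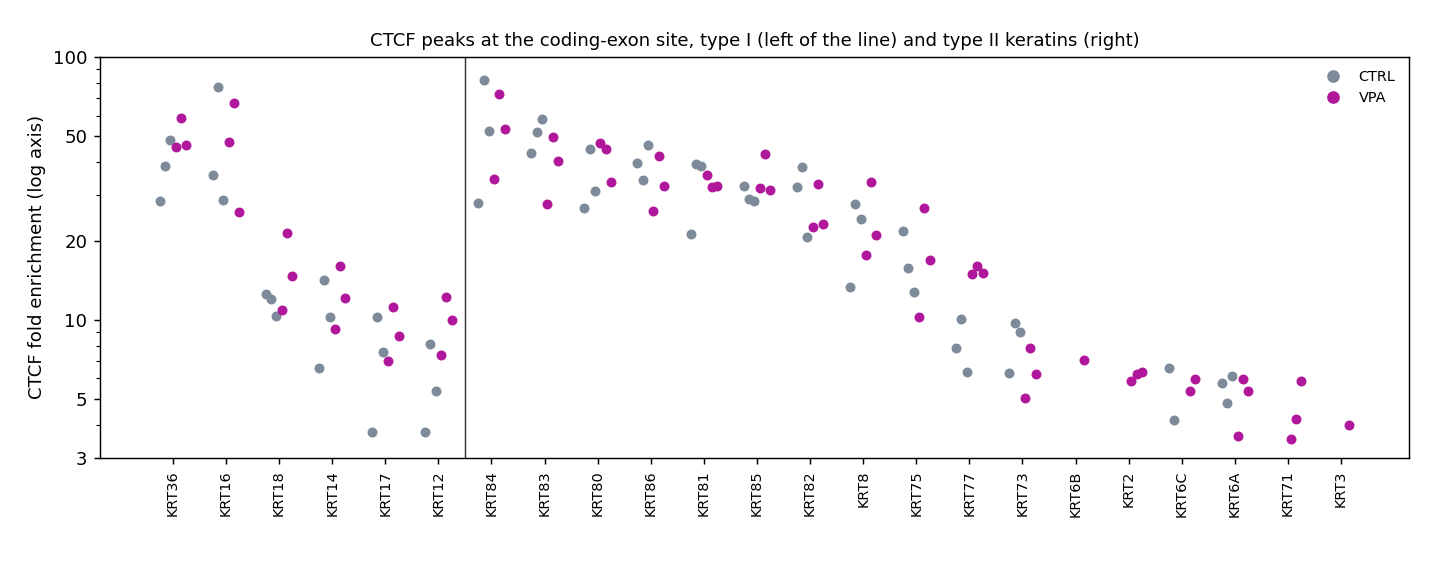
CTCF fold enrichment (log axis) at the coding-exon site of the 23 keratins with a peak there in any library, a point per library, grey for CTRL and magenta for VPA, type I keratins left of the line. KRT2 and KRT71 have points only for VPA, and at KRT77 the VPA points lie above the CTRL points.

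CTCF also stood between acetylated and silent keratins. Of 53 gaps between the starts of neighbouring keratins, 25 held a CTCF region called in all libraries, 41 regions in all or 2.39 per 100 kb. A border between an acetylated and a silent keratin held one in 4 of 5 gaps, 11 regions or 5.29 per 100 kb. Gaps between 2 acetylated keratins held one in 5 of 5, at 5.19 per 100 kb, and gaps between 2 silent keratins in 16 of 43, at 1.57 per 100 kb. The acetylated and border gaps were longer, with medians of 41229 and 44609 bp against 18985 bp. The densities of the border gaps and the acetylated gaps were close, and 5 gaps of each kind are too few for a comparison. KRT80, KRT81 and KRT83 counted as acetylated only through H3K27ac regions that overlap CTCF regions. How the gaps beside these genes were sorted thus depended in part on regions that also hold CTCF.

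The border between KRT78, silent, and KRT8 was the densest of the 5, with 6 regions in 56082 bp, 3 of them with the motif. The KRT8 exon was among them. The gap from KRT8 to KRT18, both acetylated, held 2 more. The first, chr12:52904825-52905556, had its summit 127 bp upstream of the KRT8 start, at 12.5, 18.6 and 17.9 in CTRL and 26.3, 17.3 and 16.5 in VPA, without the motif. The second, chr12:52927267-52928003, lay beyond the farther region called in VPA and held the motif on the minus strand, at 7.31, 12.6 and 9.19 in CTRL and 11, 12.7 and 8.44 in VPA. CTRL and VPA overlapped at both. The border from KRT222 to KRT24 held none. The borders around KRT10 held 1 towards KRT28 and 2 towards KRT12, and that from KRT83 to KRT85 held 2. The longest gap between silent keratins, KRT40 to KRT33A, spanned 366502 bp and held 2.

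The motif was found in 24 of the 35 shared CTCF regions of the windows (68.6%), against 59.5% of 27794 over the autosomes. It was learned from these same libraries, and its score limit was set so that 1.0% of windows placed 2 kb away reached it. Of the 24 matches, 19 lay on the plus strand and 5 on the minus strand. Over the autosomes both strands were used about equally (8332 and 8200). The exon site is read opposite to the gene and most keratins are on the minus strand, which sets the strand of the exon sites.

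The keratin promoters at hand, nearly all of silent genes, differed in sequence from most promoters. RefSeq promoters (250 bases before to 50 after the start) were at hand for 34 keratins, 38 promoters in all, and 33725 over all genes. Silent keratins gave 36 of the 38 and partial keratins 2, and the active keratins KRT18 and KRT222 were not among them. KRT8 was represented only by its distal start, and KRT40 by several promoters, some of them overlapping. The promoters of all genes were not split by status. Searched on both strands, TATAAA was in 21 of 38 keratin promoters (55.3%, against 11.6% of all), GGGCGG in 6 (15.8%, against 45.0%), CCAAT in 18 (47.4%, against 34.4%) and TGACTCA, the AP-1 site, in 0 (0.0%, against 4.91%). None of these motifs overlaps another in its letters. The median GC content was 45.7% in the 36 promoters of silent keratins and 58.7% in all promoters, with medians of 2.0 and 14 CpG.

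The promoter of KRT20, a simple keratin of the gut, was the 1 silent promoter of the simple class with CTCF beside the start. A CTCF region, chr17:40884942-40885577, had its summit 63 bp from the start and was called in replicates 2 and 3 of both groups, at 11.6 and 6.62 in CTRL and 7.96 and 4.07 in VPA, but not in replicate 1 of either. No match to the CTCF motif was found in that region. The promoter is printed with its CCAAT box in capitals.
KRT20, chr17:40885193-40885492, minus strand: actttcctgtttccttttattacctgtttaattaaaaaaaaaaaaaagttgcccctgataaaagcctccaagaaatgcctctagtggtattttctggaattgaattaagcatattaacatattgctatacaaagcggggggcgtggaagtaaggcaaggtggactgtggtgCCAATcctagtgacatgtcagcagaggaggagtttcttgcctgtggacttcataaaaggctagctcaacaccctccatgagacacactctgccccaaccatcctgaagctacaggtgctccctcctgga

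Genes that work with keratins were looked at in the same way. Of 15 other intermediate filament genes 10 (66.7%) were active in CTRL, among them VIM, NES (nestin) and the lamins LMNA, LMNB1 and LMNB2. Of 19 desmosome and linker genes, which anchor keratin filaments to junctions, 10 (52.6%) were active, and of 15 regulators of keratin genes 8 (53.3%). Of 10 genes of the cornified envelope, the protein shell of dead epidermal cells, 0 were active (0.0%). By the count of peaks without overlap, 3 regulators were higher in VPA, GRHL3 (1, 2 and 1 against 4, 5 and 4), TP63 (0, 0 and 0 against 1, 2 and 3) and SP1, with DSG2 (1, 1 and 1 against 2, 2 and 2), DES, LMNB1 and BFSP1 in the other lists. Of 8 epithelial adhesion genes, 2 were also higher, and the counts of the others overlapped between CTRL and VPA. The 2 were CDH1 (1, 1 and 2 against 3, 6 and 5) and EPCAM (1, 2 and 2 against 3, 3 and 4). Over all genes the share that was higher was 9.95%.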

How the data were processed

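Chromatin immunoprecipitation libraries of HEK293T cells (H3K27ac and CTCF, CTRL and VPA, 3 replicates each) were deposited as MACS3 narrowPeak files. Per the submitters' processing notes and the study's methods, the authors aligned paired-end reads to hg38 with Bowtie2 and called peaks per library with MACS3 3.0.0a7 at a q-value of 0.05. The deposited columns hold a display score, the summit fold (a ratio of pileup to local background) and −log10 of the p-value and q-value, with no read counts. The 6 input libraries were not analysed here. Use of the input and treatment of duplicates are not given in the sources used here.

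From the files, peaks on the autosomes were assigned by summit to GENCODE 44 genes and merged into regions by overlap of at least 1 bp. Library totals were compared by exact permutation tests, two-sided, adjusted over 7 tests (Benjamini-Hochberg). For regions called in all 6 libraries, log2 fold was tested with limma 3.58.1 (R 4.3.3), VPA against CTRL, after a test on simulated data. That test required recovery of planted changes only at a noise below the real spread between replicates. Python 3.11.15, numpy 2.4.6, pandas 2.3.3 and pysam 0.24.0 were used for the rest. Named keratins were the active or partial ones, those with a region called by limma or found in 1 group only, the ends of each cluster and the genes at active-silent borders. Of other lists, at most 6 active or changed genes were named. Keratins named for the exon site, for CTCF regions without overlap or for the KRT20 promoter were chosen after their values were seen. Members, gene lists and thresholds were chosen with earlier results of these data known. For H3K27ac, CTRL and VPA replicates with the same number correlated (0.864, 0.585 and 0.59), but so did replicates 2 and 3 across numbers (0.606 and 0.554). The same-number correlations for CTCF were 0.34, −0.0451 and 0.477. The main tests were unpaired, and the replicate block was an alternative. A sequence at a coding-exon site is not reported here.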

Additional observations from a re-analysis of the deposited data

How the results depend on the processing

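Of 152 alternatives over 12 results, 126 counted as the same and 26 as changed. For the library values, the same meant the same direction of the difference, without regard to a p-value. For limma it meant that 0 keratin regions passed. For the counts of regions in 1 group only and of occupied exons it meant a count within a factor of 1.5. No cause of a change was tested. The difference in H3K27ac peaks in keratin windows (2.67) was −0.333 with lists of equal length and 2.0 to 3.5 when single libraries were left out. The difference in CTCF peaks (−0.667) was 0.667 at a −log10 q of at least 10, 2.0 with equal lists, 0.667 in gene bodies, 1.5 with replicates 2 and 3 only, and −3.5 to 3.5 without single libraries, with 1.33 without CTRL replicate 2 and 3.5 without VPA replicate 1. The difference in H3K27ac share (−0.00284 percentage points) was 0.00454 with a 50 kb flank and −0.00579 to −0.000625 without single libraries. That in CTCF share (0.00451) was −0.0031 in replicate 1 only and −0.000596 to 0.013 without single libraries, below 0 without CTRL replicate 3 (−0.000596) and VPA replicate 1 (−0.000152). The difference in promoter genes (1.0) was 0.0 with any overlap, a 2.5 kb promoter or any coding start. The difference in genes with H3K27ac in the window (−1.0) was 0.0 at a −log10 q of at least 10, 0.333 in gene bodies, 1.0 with a 50 kb flank, and −1.33 to −0.333 without single libraries. That for CTCF (1.33) was −0.833 to 3.67 without single libraries, below 0 without CTRL replicate 1 (−0.833) and VPA replicate 2 (−0.333).

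Keratin regions found in 1 group only numbered 3 for H3K27ac, 0 with equal lists, 5 with summits extended by 200 bp and 3 to 4 without single libraries. For CTCF they numbered 2, 0 with equal lists and 2 to 5 without single libraries, with 5 without VPA replicate 2. In limma, 0 of 7 H3K27ac keratin regions passed, 1 with the replicate block, 1 with pileup over genome background, and 4 with both, 2 higher and 2 lower, a setting chosen after seeing the data. Over all regions, 725 were then higher and 2619 lower by pileup, and 2364 and 9329 by pileup with the block. For CTCF, 0 of 35 passed in any setting, the replicate block included. The block changed no other call. The 18 occupied exons stayed 18 in replicates 2 and 3 and at −log10 q of at least 3 or 10, alternatives also chosen after seeing the data. With 3 libraries a group and unknown read depth, differences smaller than the spread between libraries could not be seen.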
